A study of Mus musculus with 24 samples.

Results

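Klrg1 and 9 other genes of the killer cell lectin-like receptor (KLR) family, Klrb1c, Klrk1, Klrc1, Klrd1, Klre1, Klra4, Klra7, Klra8 and Klra9, were analyzed in bulk RNA-seq libraries of 3 splenic regulatory T (Treg) cell subsets. The genes were taken by symbol from the Ensembl identifiers of the expression table, and all 10 were found among the 17464 genes it lists. The table also lists 10 other genes of the family, of the 31 annotated in GENCODE M39. The cells were sorted from wild-type C57BL/6JRccHsd mice that were 2 months old (young) or 26 months old (old), with 4 mice of each age. Resting Treg (rTreg) cells were sorted as CD62L+ CD44-, activated Treg (aTreg) cells as CD62L- CD44+, and kTreg cells as KLRG1+ Treg cells. Each mouse gave 1 library of each subset, so that there were 24 libraries in 6 groups of 4. Treg cells were recognized in the sort by surface proteins, as CD4+ CD25hi cells. The transcript of their defining factor, Foxp3, was present in every library, at 5079 to 37793 normalized read counts (the reads of a gene divided by 1 size factor per library).

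The KLR proteins are C-type lectin-like receptors best known from natural killer (NK) cells, where activating and inhibitory members set the response to a target cell. KLRG1 is inhibitory and binds cadherins, NKG2D (Klrk1) is activating and binds stress-induced ligands, and NKG2A (Klrc1) pairs with CD94 (Klrd1) to bind the class Ib molecule Qa-1. Klrb1c encodes NK1.1, the activating receptor used to mark NK cells in C57BL/6 mice, and Klre1 encodes a receptor that pairs with KLRI proteins. The Klra genes encode the Ly49 receptors for class I MHC and related molecules, of which Ly49D (Klra4) and Ly49H (Klra8) are activating and Ly49G (Klra7) and Ly49I (Klra9) are inhibitory. Ly49 genes are expressed by some cells and not by others within an NK cell population, and several T cell populations also carry NK receptors. A bulk library cannot tell more cells with a transcript from more transcript per cell.

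All 10 genes lie on chromosome 6 of GRCm39. Klrg1 (ENSMUSG00000030114) occupies 122246981 to 122259914 on the minus strand, away from the others. Within the NK gene complex, Klrb1c (ENSMUSG00000030325) starts at 128755448, Klre1 (ENSMUSG00000050241) at 129554868, Klrd1 (ENSMUSG00000030165) at 129568677, Klrk1 (ENSMUSG00000030149) at 129587286 and Klrc1 (ENSMUSG00000030167) at 129642978. The Ly49 members follow, with Klra4 (ENSMUSG00000079852) starting at 130020690, Klra8 (ENSMUSG00000089727) at 130092152, Klra9 (ENSMUSG00000033024) at 130155636 and Klra7 (ENSMUSG00000067599) at 130195566. Klre1 and Klrd1 are on the plus strand and the other 8 on the minus strand.

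The coding sequences of the 4 Ly49 members are close enough that reads can be hard to assign, so 2 stretches are shown from the GENCODE M39 transcripts. Klra8 and Klra9 were 91.9% identical over 801 aligned coding bases, Klra4 and Klra7 84.3%, and the other pairs 77.8% to 80.4%. The first stretch is the run of 90 bases with the fewest differences among the 4 genes, starting at coding base 585 of Klra8. Sequences run 5′ to 3′, and capitals mark bases that differ from Klra8:
Klra8: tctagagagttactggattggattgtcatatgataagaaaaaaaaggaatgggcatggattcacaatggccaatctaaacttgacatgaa
Klra9: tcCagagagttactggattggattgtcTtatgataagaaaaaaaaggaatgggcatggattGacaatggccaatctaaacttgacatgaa
Klra4: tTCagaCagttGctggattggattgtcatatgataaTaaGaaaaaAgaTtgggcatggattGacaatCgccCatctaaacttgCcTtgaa
Klra7: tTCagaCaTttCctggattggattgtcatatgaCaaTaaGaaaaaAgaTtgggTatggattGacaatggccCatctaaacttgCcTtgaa
Here Klra9 differed from Klra8 at 3 bases, Klra4 at 13 and Klra7 at 15. The second stretch, from coding base 23 in all 4 genes, had the most differences, and there each gene differed from Klra8 at 22 to 27 bases:
Klra8: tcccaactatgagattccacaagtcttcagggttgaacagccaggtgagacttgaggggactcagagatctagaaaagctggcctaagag
Klra9: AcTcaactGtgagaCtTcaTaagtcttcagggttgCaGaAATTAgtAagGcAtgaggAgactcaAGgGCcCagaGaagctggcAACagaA
Klra4: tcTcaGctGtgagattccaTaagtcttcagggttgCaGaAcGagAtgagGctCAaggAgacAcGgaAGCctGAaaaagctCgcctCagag
Klra7: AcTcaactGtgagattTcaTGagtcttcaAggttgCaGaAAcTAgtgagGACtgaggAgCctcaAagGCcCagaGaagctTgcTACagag
Exact sharing over a whole read was rarer than these near-matches. Of the windows of 150 bases, the read length, 208 of 3282 in Klra8 transcripts (6.34%) also occurred in transcripts of another gene, all of them in Gm66458, a noncoding gene that overlaps the pseudogene Klra14-ps. For Klra9 it was 52 of 1880 windows (2.77%), 43 of them in Klra10, and for Klra4 and Klra7 none. Klrc1 shared 92 of 2274 windows with Klrc2 (4.05%), and Klrb1c shared 271 of 3778 (7.17%) with Gm44511, which overlaps it on the same strand. Klrg1, Klrd1, Klrk1 and Klre1 shared none. How reads with several matching positions were counted is not given in the sources used here, so values of Klra4, Klra7, Klra8 and Klra9 are uncertain in their assignment to 1 gene.

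Between 15045747 and 29521942 reads lay on listed genes in a library. The young kTreg library of replicate 4 stood apart, with 4913 genes at 0, against 419 to 2756 in the other 23. In it 6 of the 10 members and 16 of the 20 listed family genes were at 0. The 3 libraries of young mouse 2 held more B cell transcripts than the rest, with a sum over 6 marker genes of 7921 to 16712 against 589 to 2064 in the other 21 libraries. Old rTreg libraries held the highest sums of 11 NK cell marker genes that are not members, 7385 to 15740, against 1520 to 3960 in young rTreg cells. Sums of 6 macrophage and monocyte markers were 10095 to 26339 in old rTreg and 569 to 8160 in young rTreg libraries. Young mouse 2 had the highest such sum in each young group, 8160 in rTreg, 2832 in aTreg and 20569 in kTreg cells, where the other 3 young kTreg libraries had 351 to 833. In aTreg cells the NK marker sum lay at 2121 to 3443 in young and 3431 to 6966 in old mice, and in kTreg cells at 3333 to 5253 and 3528 to 4688. These sums are given again where they move with a member.

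**Figure D1:**
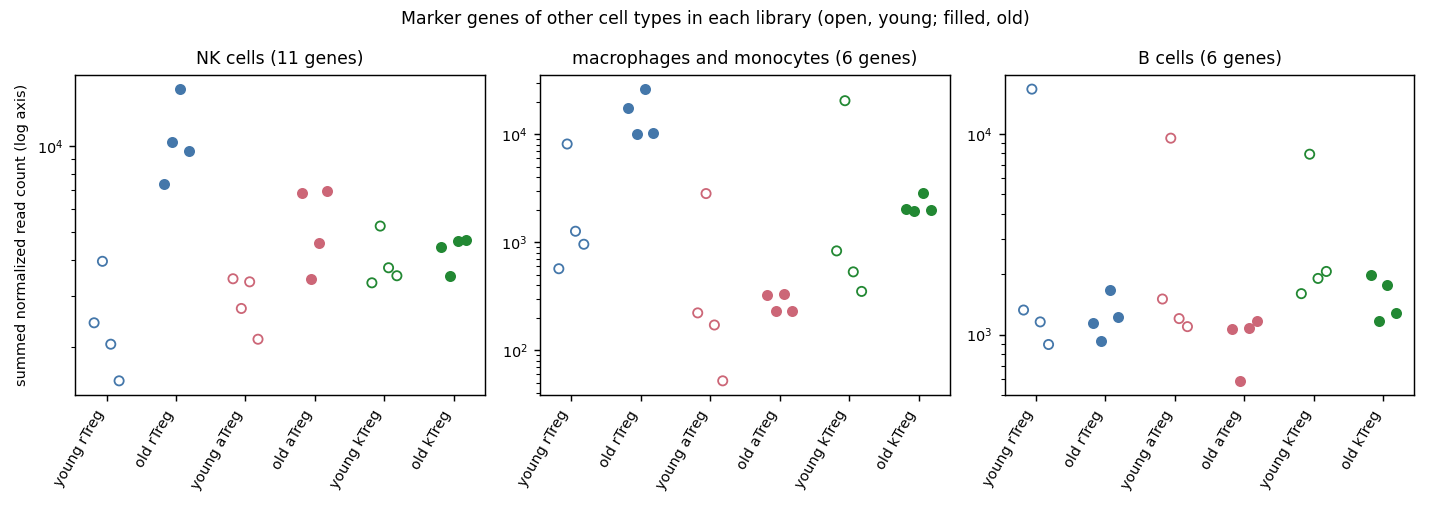
Summed normalized read counts of marker genes of NK cells, macrophages and monocytes, and B cells (log axis) in each of the 24 libraries, by group (x axis; open points, young; filled points, old). Old rTreg libraries lie at 7385 to 15740 for the NK genes, above the other 5 groups, and the 3 libraries of young mouse 2 lie at 7921 to 16712 for the B cell genes.

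Klrg1 was the gene of the protein used to sort kTreg cells, so its level there checks the sort and is no finding. Klrg1 reached 29643, 26704, 30737 and 41561 normalized read counts in the young kTreg libraries and 16559, 21310, 32088 and 20012 in the old ones. In young aTreg cells it stood at 177, 106, 108 and 109, and in old aTreg cells at 156, 160, 238 and 258. In rTreg cells it stood at 99.7, 140, 50.1 and 37.1 in young mice and at 357, 197, 0.694 and 81.6 in old mice. Every kTreg library was above every other library, while the rTreg and aTreg groups overlapped. The low old rTreg value is a single read in replicate 3. As a description, the kTreg level on the log2(value + 1) scale exceeded the aTreg level by 7.40 (SE 0.68), a fold of 168. It exceeded the rTreg level by 8.69 (SE 0.68), a fold of 413, and both held in 8 of 8 mice. The rTreg difference ran from 7.85 to 9.13 over the 24 fits that left out 1 library, so its fold depends on single libraries.

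Klrg1 transcript passed no test between rTreg and aTreg cells, nor between the ages. The difference between aTreg and rTreg cells was 1.29 on the log2 scale (SE 0.68, limma adjusted p = 0.283), with 5 of 8 mice higher in aTreg. Within kTreg cells, Klrg1 averaged 32161 ± 6494 in young and 22492 ± 6704 in old mice (SD, n = 4). The old kTreg level differed from the young one by −0.54 (SE 0.96, limma adjusted p = 0.798), and the values overlapped. The corresponding differences were −0.37 (SE 0.96, adjusted p = 0.877) in rTreg and 0.70 (SE 0.96, adjusted p = 0.907) in aTreg cells by limma. Leaving out the old rTreg library with 1 read, replicate 3, moved the rTreg difference to 1.31 without passing the test. The errors came from a spread shared by all 6 groups, in which that library entered. Over the 24 fits that left out 1 library, the lowest limma adjusted p was 0.0564 for this rTreg difference. It was 0.0888 for aTreg against rTreg cells and 0.454 for age in kTreg cells. Equal levels were thus not shown.

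**Figure D2:**
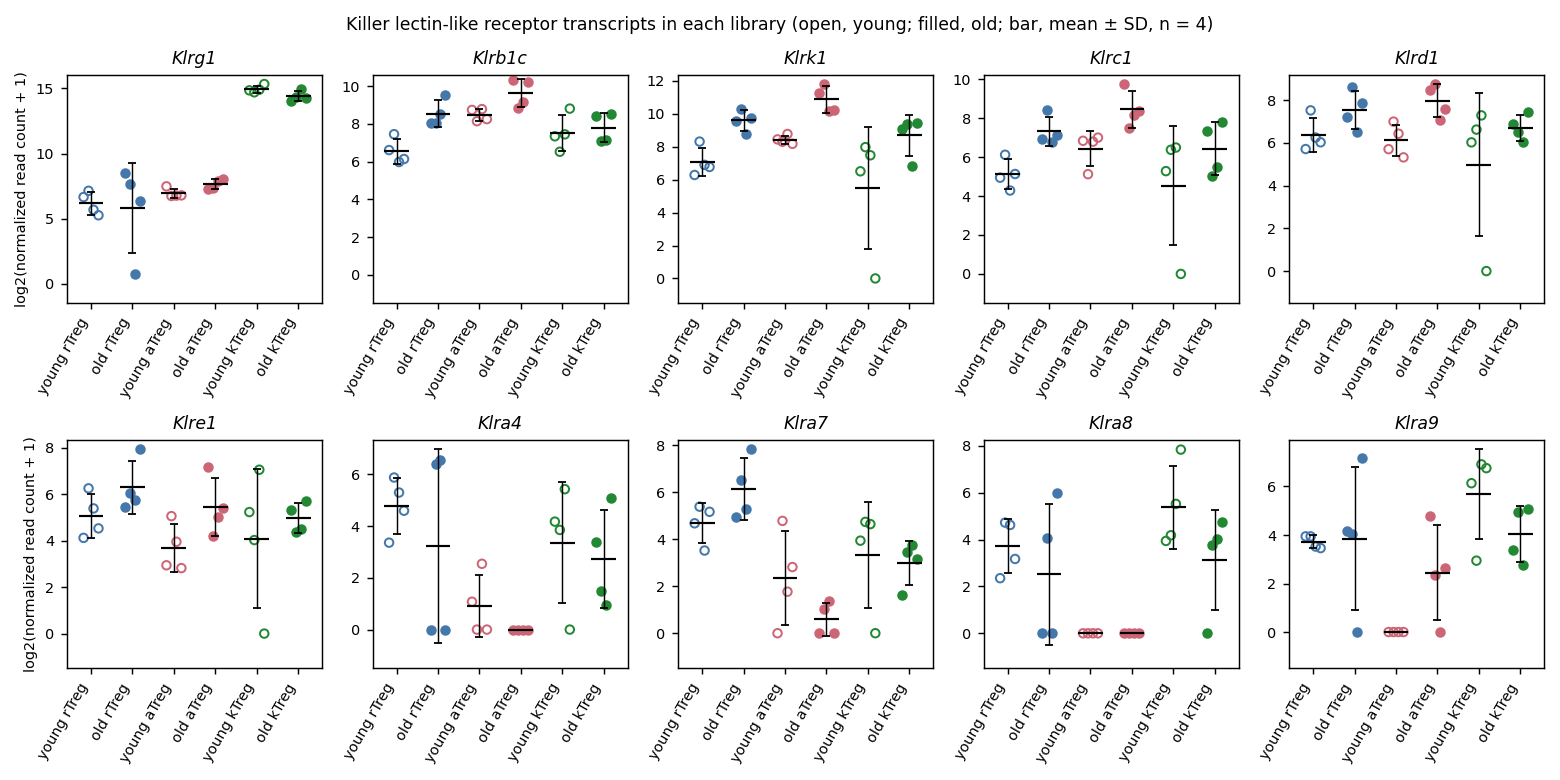
log2(normalized read count + 1) of the 10 KLR genes in each library (points; open, young; filled, old), by subset and age, with the mean and SD of 4 libraries. Klrg1 is high in the 8 kTreg libraries, Klra8 is at 0 in all 8 aTreg libraries, and the young kTreg library of replicate 4 is at 0 for 6 of the 10 genes.

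The comparison of kTreg with aTreg cells asks what sets KLRG1+ Treg cells apart from other Treg cells with an activated phenotype. Beside Klrg1, the Ly49 genes Klra8 and Klra9 were higher in kTreg cells, whereas Klrk1 and Klrb1c were lower. A gene passed the test with a Benjamini-Hochberg adjusted p below 0.05 over all 16630 genes tested and a fold change above 1.5. Of the 10 members 3 were called higher, Klrg1 included, beside 4.13% of all genes tested, and 2 were called lower, beside 3.26% (7.39% in either direction). The median difference was −0.045 for the 9 members other than Klrg1 and 0.82 with it, beside −0.08 over all genes.

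Klra8, which encodes the activating receptor Ly49H, was not detected in any aTreg library. Its kTreg values were 14.4, 17.2, 45.1 and 229 in young and 0, 12.6, 15.2 and 26.3 in old mice. Thus 7 of 8 mice had more Klra8 in kTreg than in aTreg cells, the exception being old mouse 1, which had none in either. With a floor of 3 reads per library in aTreg cells, the mean kTreg level of 45.0 was at least 15.7-fold higher. That mean includes the 229 of young replicate 4 (median 16.2), and no bound was computed without that library. The fitted difference, which depends on the pseudocount, was 4.26 (SE 0.83, limma adjusted p = 0.00159). The value of 229 came from the library with many genes at 0, and without that library the difference was 3.85 (SE 0.82, limma adjusted p = 0.00246).

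Klra9, which encodes the inhibitory receptor Ly49I, showed the same order. Its values were 69.3, 6.69, 119 and 107 in young kTreg libraries and 9.43, 29.7, 5.71 and 32.8 in old ones. In aTreg cells it was at 0 in all 4 young libraries and at 26.3, 4.13, 0 and 5.21 in the old ones. Klra9 was higher in kTreg cells in 7 of 8 mice, with a difference of 3.64 (SE 0.81, limma adjusted p = 0.00453). The other Ly49 members lay in the same direction without passing the test. Klra4 differed by 2.59 (SE 0.97, adjusted p = 0.0897) and Klra7 by 1.69 (SE 0.71, adjusted p = 0.134) by limma. Without the young kTreg library of replicate 4 both were called, at 3.15 (SE 0.92, adjusted p = 0.0219) and 2.25 (SE 0.60, adjusted p = 0.013) by limma, so that 5 members were called higher and 2 lower, beside 5.69% and 3.64% of all genes. Klra7 was also called without young aTreg replicate 2.

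These Ly49 values were low throughout. Over all 24 libraries the reads summed to 523 for Klra8, 665 for Klra9, 435 for Klra4 and 716 for Klra7, against 16912 for Klrk1. Klra8 was above 0 in 13 libraries and Klra4 in 15. Of 20 genes known from NK cells, Ncr1, which encodes NKp46, Gzma, Gzmb, Tyrobp and Itgam were also higher in kTreg than in aTreg cells, and Xcl1 and Txk were lower. These 5 and 2 of 20 stood beside 4.13% of all genes called higher and 3.26% called lower. Ncr1 differed by 2.24 (SE 0.57, adjusted p = 0.012), Gzma by 4.87 (SE 0.65) and Tyrobp by 2.39 (SE 0.60, adjusted p = 0.0105) by limma. The part of other cells in the Ly49 values was not tested.

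Klrk1, which encodes the activating receptor NKG2D, had the opposite order. In young mice it stood at 90.2, 252, 178 and 0 in kTreg and at 349, 315, 438 and 289 in aTreg libraries. In old mice it stood at 549, 679, 111 and 702 in kTreg and at 2481, 3569, 1149 and 1228 in aTreg libraries. The aTreg library was the higher one in 8 of 8 mice, as it was for 6.09% of all genes, and within each age the groups did not overlap. The difference was −2.56 (SE 0.78, limma adjusted p = 0.0331). Without the young kTreg library at 0 it was −1.64 with a smaller error (SE 0.38, limma adjusted p = 0.00509). The call was lost without aTreg replicate 1 or 3 of the young mice, aTreg replicate 1 or 2 of the old mice, or old kTreg replicate 3.

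Klrb1c, which encodes NK1.1, stood at 426, 281, 439 and 303 in young and 1288, 450, 571 and 1186 in old aTreg cells. Its kTreg values were 161, 90.8, 173 and 447 in young and 344, 136, 140 and 361 in old mice. Klrb1c was lower in kTreg cells in 7 of 8 mice, by 1.39 on the log2 scale (−1.39, SE 0.34, limma adjusted p = 0.00893), and the exception was the young mouse of replicate 4. The NKG2A gene Klrc1 differed by −1.96 (SE 0.71, limma adjusted p = 0.0783), with 7 of 8 mice lower. Klrc1 was called without young kTreg replicate 2 or 3. Its partner Klrd1 differed by −1.20 (SE 0.72, adjusted p = 0.316) and Klre1 by −0.05 (SE 0.73, adjusted p = 0.98) by limma.

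**Figure D3:**
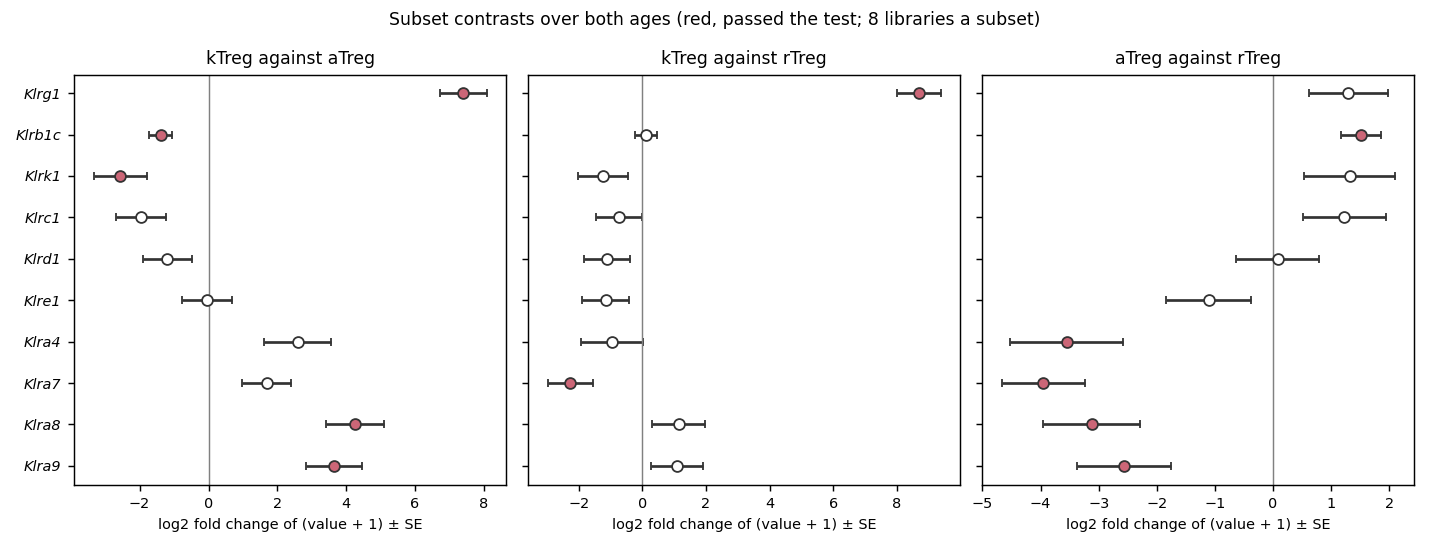
Difference between subsets over both ages for the 10 KLR genes (x axis, log2 fold change of normalized read count + 1, with its SE; red points passed the test; 8 libraries per subset). Klra8 and Klra9 lie right of 0 for kTreg against aTreg (4.26 and 3.64) and left of 0 for aTreg against rTreg (−3.12 and −2.56), and Klrb1c takes the opposite sides (−1.39 and 1.51).

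Compared with rTreg cells, aTreg cells had lower levels of the 4 Ly49 genes and a higher level of Klrb1c. This comparison asks how Treg cells with an activated phenotype differ from resting ones. Of the 10 members 1 was called higher, beside 5.23% of all genes, and 4 were called lower, beside 2.78% (8.01% in either direction). The median member difference was −0.51, beside 0.06 over all genes.

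Klra7, which encodes the inhibitory receptor Ly49G, was lower in aTreg than in rTreg cells in 8 of 8 mice, as were 2.87% of all genes. Its values were 24.7, 41.0, 10.5 and 35.1 in young and 30.0, 91.6, 38.2 and 229 in old rTreg libraries. In aTreg libraries they were 0, 26.6, 2.41 and 6.06 in young and 0, 1.03, 1.57 and 0 in old mice. The difference was −3.95 (SE 0.71, limma adjusted p = 0.000694). The 4 old aTreg libraries held 3 Klra7 reads in all and the old rTreg libraries 473, a ratio of 137 with a 95% counting interval of 46.7 to 669 (exact binomial, counting error only).

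Klra4, which encodes the activating receptor Ly49D, stood at 9.25, 57.6, 38.2 and 23.1 in young and at 0, 82.2, 91.6 and 0 in old rTreg libraries. It was at 1.11, 0, 4.82 and 0 in young aTreg cells and at 0 in all 4 old ones. The difference was −3.55 (SE 0.97, limma adjusted p = 0.0199). Klra8 differed by −3.12 (SE 0.83, limma adjusted p = 0.0167). With the aTreg floor of 3 reads per library, its rTreg mean of 17.5 was at least 6.13-fold higher. Klra9 differed by −2.56 (SE 0.81, limma adjusted p = 0.0462). This Klra9 call was lost in 20 of the 24 fits that left out 1 library. Without the 3 libraries of young mouse 2 the calls of Klra4 (limma adjusted p = 0.0851) and Klra8 (limma adjusted p = 0.0597) were lost as well, and that of Klra8 also with pseudocount 5 (limma adjusted p = 0.055).

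Klrb1c was higher in aTreg than in rTreg cells in 8 of 8 mice, as were 4.58% of all genes, with a difference of 1.51 (SE 0.34, limma adjusted p = 0.00495). Its rTreg values were 96.6, 174, 62.0 and 69.3 in young and 263, 262, 367 and 750 in old mice. Klrk1 was higher in aTreg cells in 7 of 8 mice, by 1.32 (SE 0.78, limma adjusted p = 0.353), and was called without the young kTreg library of replicate 4 (SE 0.37, limma adjusted p = 0.017), where 2 members were called higher and 4 lower, beside 7.06% and 3.92% of all genes. Of the 20 NK cell genes 5 were lower here, like the Ly49 genes (Gzma, Tyrobp, Itgam, Fcgr3 and Ncr1), beside 2.78% of all genes. Another 3 were higher (Tbx21, Zfp683 and Nfil3), beside 5.23%. Gzma differed by −4.21 (SE 0.65), Ncr1 by −2.97 (SE 0.57, adjusted p = 0.0013) and Tyrobp by −3.98 (SE 0.60) between aTreg and rTreg cells by limma. The myeloid marker Lyz2 differed by −4.67 (SE 1.16, limma adjusted p = 0.0100). Their part in the Ly49 values was not tested.

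Between kTreg and rTreg cells 2 of the 10 members were called, a count near the 15.5% of all genes called in either direction. Beside Klrg1 (1 of 10 called higher, with 9.37% of all genes called higher), Klra7 was the only member called, and it was lower (1 of 10, beside 6.09%; 15.5% in either direction). Klra7 stood at 14.4, 25.8, 24.1 and 0 in young and 2.10, 9.91, 12.4 and 7.88 in old kTreg cells, below rTreg cells in 7 of 8 mice. The difference was −2.26 (SE 0.71, limma adjusted p = 0.0244). The call was lost without old rTreg replicate 4 or old kTreg replicate 1. Klra8 and Klra9 differed by 1.14 (SE 0.83, adjusted p = 0.356) and 1.08 (SE 0.81, adjusted p = 0.371), and Klrb1c by 0.12 (SE 0.34, adjusted p = 0.844) by limma. Thus Klra8 and Klra9 were lowest in aTreg cells and did not pass a test between the other 2 subsets, whereas Klrb1c was highest in aTreg cells.

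The levels of the non-Ly49 receptors were ranked per kilobase of exon. The length was the union of all annotated exons, 7194 bases for Klrk1 and 1335 for Klrd1, and the ranks depend on that choice. In old aTreg cells the mean normalized read count per kilobase was 293 for Klrk1, 274 for Klrb1c, 210 for Klrc1, 209 for Klrd1 and 16.3 for Klre1. In young aTreg cells Klrb1c led with 113 per kilobase, ahead of Klrd1 with 56.6, Klrc1 with 48.5 and Klrk1 with 48.4. In young kTreg cells Klrg1 stood at 15605 per kilobase and every other member at 68.2 or less. For Klrk1 the order of group means was old aTreg, old rTreg, old kTreg, young aTreg, young rTreg and young kTreg, and each neighbor overlapped the next. For all members except Klrg1 and Klra7 every neighbor in the order of the 6 group means overlapped. Klra7 was lowest in old aTreg cells, whose 4 values lay below those of the next group, old kTreg. The nearest values, 1.57 in old aTreg and 2.10 in old kTreg cells, were 2 reads each and differed only by the size factor.

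Aging was compared within each subset, which asks whether the receptors follow age. Klrb1c was higher in old than in young rTreg cells, and Klrk1 and Klrc1 lay higher in old mice in both rTreg and aTreg cells without overlap between the ages. In rTreg cells 1 of 10 members was called higher, beside 4.12% of all genes, and none lower, beside 1.71% (5.83% in either direction). In aTreg cells limma called 0 of 10 (2.71% of all genes in either direction, 1.85% higher and 0.86% lower) and in kTreg cells 0 of 10 (1.26%, 1.02% higher and 0.235% lower). At an unadjusted p below 0.05, 3 members passed in rTreg (22% of all genes), 3 in aTreg (12.5%) and 1 in kTreg cells (15.5%). DESeq2 on the recovered reads called 3 (8.68% of all genes), 2 (4.79%) and 0 (2.74%), and edgeR 1 (5.13%), 0 (2.45%) and 0 (0.655%). The groups did not overlap for 3 of 10 members in rTreg cells, beside 11.7% of all genes, for 4 in aTreg cells, beside 13.4%, and for 0 in kTreg cells, beside 10.5%. The median member difference was 1.2 in rTreg cells (−0.08 over all genes), 1.46 in aTreg (0.01) and −0.04 in kTreg cells (0.12).

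The values of Klrb1c in rTreg cells were 62.0 to 174 in young and 262 to 750 in old mice. The difference was 2.00 (SE 0.48, limma adjusted p = 0.0137). The call was lost without young rTreg replicate 3 or old rTreg replicate 4. In aTreg cells all old values, 450 to 1288, also lay above the young ones, 281 to 439, with a difference of 1.15 (SE 0.48, limma adjusted p = 0.284). In kTreg cells the ages overlapped and the difference was 0.26 (SE 0.48, limma adjusted p = 0.803).

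Klrk1 stood at 77.1, 318, 119 and 108 in young and at 774, 1284, 432 and 852 in old rTreg libraries. Old and young values did not overlap, in rTreg or in aTreg cells. The differences were 2.54 in rTreg (SE 1.1, limma adjusted p = 0.174) and 2.45 in aTreg cells (SE 1.1, limma adjusted p = 0.342). In kTreg cells old values of 111 to 702 overlapped young values of 0 to 252, with a difference of 3.20 (SE 1.1, limma adjusted p = 0.164).

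The errors of these age differences came from a spread shared by all 6 groups, in which the young kTreg library at 0 entered. Without that library Klrk1 kept its differences in rTreg and aTreg cells with a smaller error, and both were called (2.54, SE 0.52, adjusted p = 0.0027 and 2.45, SE 0.52, adjusted p = 0.0059, limma). Klrc1 was then also called in rTreg cells, at 2.2 (SE 0.61, limma adjusted p = 0.0204), and Klrd1 in aTreg cells, at 1.87 (SE 0.50, limma adjusted p = 0.0283). In kTreg cells the Klrk1 difference was 1.37. So 3 members were called higher in old rTreg cells, beside 6.51% of all genes, 2 in old aTreg cells, beside 2.83%, and 0 in old kTreg cells, beside 0.812%.

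The young and old values of Klrc1 were 18.5 to 68.7 and 110 to 342 in rTreg cells, and 33.9 to 127 and 181 to 864 in aTreg cells. Those of Klrd1 were 39 to 127 and 135 to 433 in aTreg cells and overlapped in rTreg cells. The old aTreg library of replicate 2 held the highest Klrk1 value, 3569, and the lowest Foxp3 value of all libraries, 5079. Without it the Klrk1 difference in aTreg cells was 2.14. The NK marker sums given above were higher in every old than in every young rTreg library, and the part of NK cells in these rTreg differences was not tested. In aTreg cells the NK marker sum was 2121 to 3443 in young and 3431 to 6966 in old mice, and Zfp683, a transcription factor gene of the NK list, was higher in old mice (2.13, SE 0.56, limma adjusted p = 0.0352). The NK receptor gene Ncr1 had the direction opposite to Klrk1, with 30.1 to 123 in young and 0 to 22.1 in old mice (−3.28, SE 0.81, limma adjusted p = 0.0251).

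**Figure D4:**
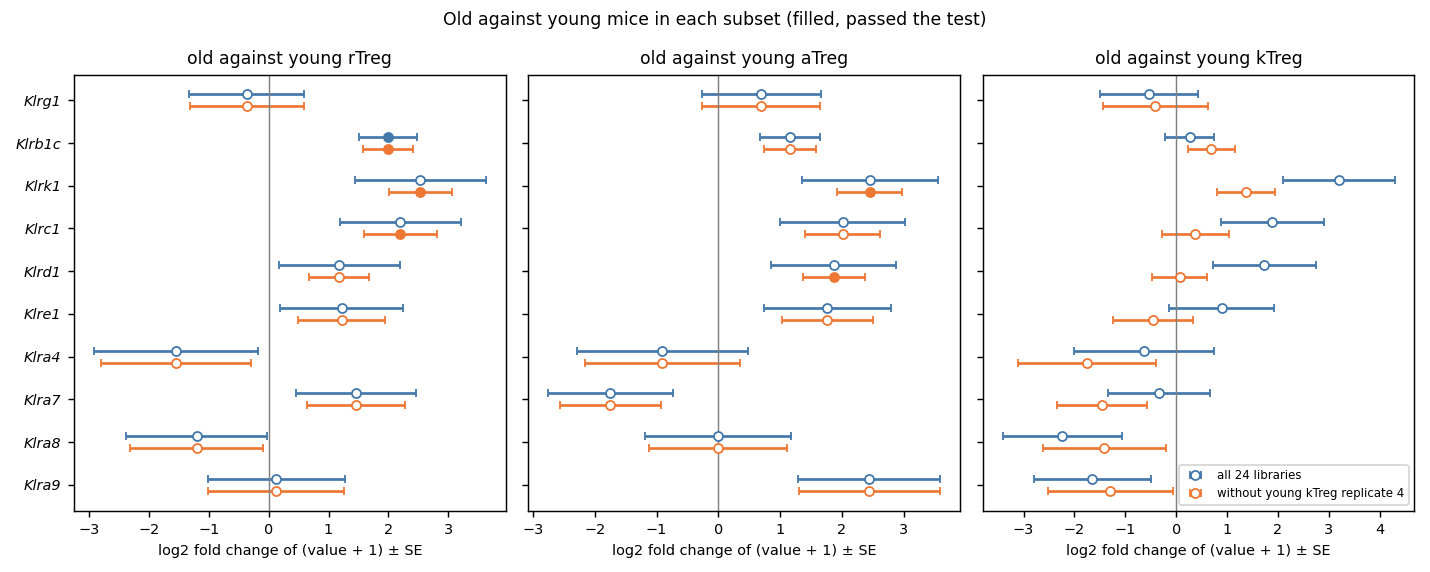
Difference between old and young mice in each subset for the 10 KLR genes (x axis, log2 fold change of normalized read count + 1, with its SE; 4 libraries per group), with all 24 libraries (blue) and without the young kTreg library of replicate 4 (orange), where filled points passed the test. Klrk1 lies at 2.54 in rTreg and 2.45 in aTreg cells in both fits, and at 3.20 and 1.37 in kTreg cells.

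No Ly49 gene was called between the ages by limma or edgeR in any subset. DESeq2 called Klra9 higher in old aTreg cells (5.77, DESeq2 adjusted p = 0.00913), where it was at 0 in all 4 young libraries. Klra8 was at 0 in both ages in aTreg cells, so no fold is given there. In kTreg cells Klra8 differed by −2.24 (SE 1.18, adjusted p = 0.362) and Klra9 by −1.65 (SE 1.15, adjusted p = 0.472) by limma, both lower in old mice. In rTreg cells Klra4 and Klra8 were each at 0 in 2 of 4 old libraries and above 0 in all 4 young ones.

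Whether the contrast between kTreg and aTreg cells itself changed with age was tested as an interaction, and no member passed (0 of 10, beside 0.156% of all genes). At an unadjusted p below 0.05 1 member, Klra9, passed (9.4% of all genes), and DESeq2 called the same gene (1 of 10, beside 0.898% of all genes), while edgeR called 0 (0.186%). Within young mice 3 members were called between kTreg and aTreg cells (6.95% of all genes), Klrg1 among them. Klra8 and Klra9 were higher in kTreg cells, at 5.38 (SE 1.18, adjusted p = 0.00551) and 5.69 (SE 1.15, adjusted p = 0.00275) by limma. Both were at 0 in all young aTreg libraries, and against the floor of 3 reads per library they were at least 28.4-fold and 28.1-fold higher. The Klra8 bound rests on a young kTreg mean of 76.4 that includes 229 in replicate 4 (median 31.1). It was not computed without that library. Within old mice 2 members were called (2.2% of all genes), Klrg1 and Klrb1c, which was lower in kTreg cells (−1.84, SE 0.48, limma adjusted p = 0.0435), a call lost in 12 of the 24 fits without 1 library. In aTreg against rTreg cells, 1 member was called in young mice (3.35% of all genes), Klrb1c (1.93, SE 0.48, limma adjusted p = 0.0232; 2 members, Klra9 added, with the mouse as a replicate block), and 1 in old mice (8.6%), Klra7 (−5.56, SE 1.01, limma adjusted p = 0.00102). Between kTreg and rTreg cells Klrg1 alone was called in young mice (1 of 10, 15.8% of all genes), and Klrg1 and Klra7 in old mice (2 of 10, 8.86%). Klra7 was lower (−3.16, SE 1.01, limma adjusted p = 0.0477), a call lost in 18 of those 24 fits.

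Of the 10 other listed family genes 9 passed the filter on low values. Between kTreg and aTreg cells 2 of the 9 were called, both lower, beside 3.26% of all genes called lower. Both were lower in 8 of 8 mice, as were 6.09% of all genes, and both are Klrb1 genes like Klrb1c. Klrb1f, which encodes a receptor of the NKR-P1 group, differed by −2.93 (SE 0.71, limma adjusted p = 0.00823). Its 8 aTreg values, 378 to 769, lay above all kTreg values, 0 to 190. Klrb1b, which encodes the inhibitory receptor NKR-P1B, differed by −2.90 (SE 0.77, limma adjusted p = 0.0143). In young mice Klrb1b was also higher in aTreg than in rTreg cells (3.84, SE 1.08, limma adjusted p = 0.0491). In old mice Klra2 was lower in aTreg than in rTreg cells (−3.45, SE 1.09, limma adjusted p = 0.0459). None of the 9 was called between kTreg and rTreg cells or between the ages by limma. Of all genes 15.5% were called between kTreg and rTreg cells. Between the ages it was 5.83% in rTreg, 2.71% in aTreg and 1.26% in kTreg cells.

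From Klrb1a to Klra2 the NK gene complex spans 2.64 Mb (chromosome 6, 128586190 to 131224330, GRCm39), and 32 genes in it were tested. Between kTreg and aTreg cells the 6 called genes of the interval were those already named above, Klra8, Klra9, Klrk1, Klrb1c, Klrb1f and Klrb1b. None of the 14 tested genes outside the KLR family was called there. Over all genes 7.39% were called, so for 14 genes this count is near that share. Higher and lower genes were not mixed along the interval, since the lower ones came from the Klrb1 and Klrk1 portion and the higher ones from the Klra portion. In aTreg against rTreg cells 1 of the 14, Gm15987, was called, and it was lower, beside 2.78% of all genes called lower.

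**Figure D5:**
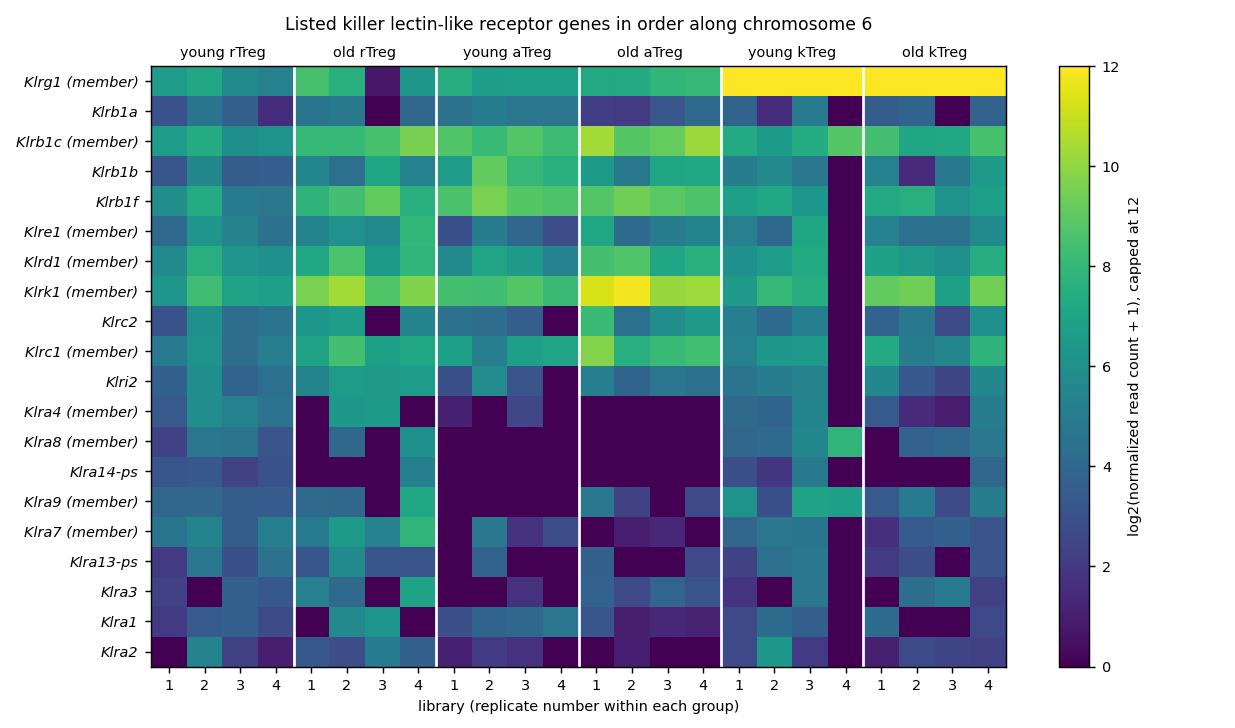
log2(normalized read count + 1) of the 20 listed KLR genes (rows, in order along chromosome 6) in each of the 24 libraries (columns, by group and replicate); the color scale stops at 12. Klra8 is at 0 in all 8 aTreg libraries, Klrk1 and Klrb1c have their highest group means in old aTreg libraries, and the young kTreg library of replicate 4 is at 0 for 16 of the 20 genes.

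Among the genes of known KLR ligands, Cdh1, which encodes the KLRG1 ligand E-cadherin, was higher in old mice in all 3 subsets. In rTreg cells its values were 12.3, 0, 10.5 and 11 in young and 394.5, 1056, 671 and 967 in old mice. In aTreg cells they were 7.80, 0, 4.82 and 13 against 255, 413, 297 and 260, and in kTreg cells 6.54, 23.9, 0 and 0 against 96.4, 124, 72.4 and 176. Old and young libraries did not overlap in any subset. The differences were 6.78 in rTreg (SE 0.96, adjusted p = 0.000118), 5.86 in aTreg (SE 0.96, adjusted p = 0.000985) and 4.92 in kTreg cells (SE 0.96, adjusted p = 0.00974) by limma. The list held 20 ligand genes, of which 12 were listed and 10 tested. In aTreg cells B2m, the light chain of class I MHC, was also called higher in old mice (0.72, SE 0.17, limma adjusted p = 0.0162), and no ligand gene was called lower in any of the 3 age contrasts. Of the 10 tested, 1 was thus called higher in old rTreg, 2 in old aTreg and 1 in old kTreg cells. Over all genes it was 4.12%, 1.85% and 1.02%. No ligand gene was called between subsets over both ages. Of all genes 7.39% were called for kTreg against aTreg, 15.5% for kTreg against rTreg and 8.01% for aTreg against rTreg cells. The median difference of the 10 tested ligand genes between old and young mice was 0.12 in rTreg, 0.31 in aTreg and 0.14 in kTreg cells (−0.08, 0.01 and 0.12 over all genes).

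KLR proteins signal through adaptors and their kinases and phosphatases. Of 18 adaptor and signaling genes 1 was called higher in kTreg than in aTreg cells, Tyrobp, which encodes DAP12, the adaptor of the activating Ly49 receptors. Of all genes 4.13% were called higher there. Tyrobp and the kinase gene Syk were lower in aTreg than in rTreg cells (2 of 18, beside 2.78% of all genes). None of the 18 was called between kTreg and rTreg cells, beside 15.5% of all genes. In old rTreg cells Tyrobp was higher than in young ones (3.36, SE 0.85, limma adjusted p = 0.0179), at 904 to 4699 against 78.1 to 757, and Pik3r1 was lower (−0.68, SE 0.16, limma adjusted p = 0.0135). Tyrobp is also expressed by myeloid and NK cells, whose marker sums were higher in every old than in every young rTreg library, and their part in its values was not tested. In aTreg cells, where Klra8 and Klra4 were at or near 0, Tyrobp stood at 31.2 to 321 in young and 10.3 to 17.3 in old mice. Hcst, which encodes DAP10, the adaptor of NKG2D, was at 1363 to 4564 in all 24 libraries and was not called in these contrasts.

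Transcription factors known to act on NK receptor genes were a further list. Of its 12 genes 2 were called higher in kTreg than in aTreg cells, Gata3 (1.16, SE 0.10) and Prdm1 (1.62, SE 0.26), and 2 lower, Tcf7 (−1.85, SE 0.16) and Bach2 (−1.39, SE 0.24), by limma. Of all genes 4.13% were called higher and 3.26% lower in that comparison. Between kTreg and rTreg cells 6 factors were called higher and 3 lower, beside 9.37% and 6.09% of all genes. Between aTreg and rTreg cells 4 were called higher and 1 lower, beside 5.23% and 2.78%. The T-box gene Tbx21, which encodes T-BET, was higher in old than in young rTreg cells (2.38, SE 0.28, by limma), as were Id2, Prdm1 and Nfil3. Its values were 130 to 265 in young and 594 to 1168 in old rTreg cells. The NK and myeloid marker sums given above were also higher in every old than in every young rTreg library. The part of those cells in these factor values was not tested. The other T-box gene, Eomes, was higher in old than in young kTreg cells (3.53, SE 0.76, limma adjusted p = 0.0213), at 61.8 to 242 against 0 to 25.1, where no KLR gene was called. Of 20 genes known from NK cells, 5 were called higher and 2 lower in kTreg than in aTreg cells (4.13% and 3.26% of all genes). The counts were 4 and 2 between kTreg and rTreg cells (9.37% and 6.09%). They were 3 and 5 between aTreg and rTreg cells (5.23% and 2.78%). In old against young mice they were 5 and 0 in rTreg cells (4.12% and 1.71%). In aTreg cells they were 1 and 1 (1.85% and 0.86%), and in kTreg cells 1 and 1 (1.02% and 0.235%).

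Markers of the sort and of other cells were counted as well. Among the sorting marker genes, Cd44 was higher in aTreg than in rTreg cells, and Klrg1 was higher in kTreg than in aTreg cells. Of 9 Treg and T cell genes, Foxp3, Ikzf2, Ctla4 and Tnfrsf18 were higher in kTreg than in aTreg cells and none was lower. Over all genes 4.13% were called higher and 3.26% lower. Among the macrophage and monocyte genes, Lyz2 was lower in aTreg than in rTreg cells. None of 5 tested B cell genes or 2 CD8 T cell genes was called between subsets or between the ages. In these contrasts 1.26% to 15.5% of all genes were called.

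Promoter windows, from 250 bases before to 50 after a gene's start, were held by the RefSeq table (GRCm38.p6) for 8 of the 10 members, all but Klrg1 and Klrd1. The Ly49 promoters are shown because Klra4, Klra7, Klra8 and Klra9 were low together in aTreg cells. The longest run that all 4 shared before the start was 11 bases long, and it is in capitals in 80 bases of each:
Klra8: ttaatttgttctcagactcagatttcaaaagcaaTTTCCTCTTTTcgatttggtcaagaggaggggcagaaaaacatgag
Klra9: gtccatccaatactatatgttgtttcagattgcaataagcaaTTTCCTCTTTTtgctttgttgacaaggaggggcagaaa
Klra4: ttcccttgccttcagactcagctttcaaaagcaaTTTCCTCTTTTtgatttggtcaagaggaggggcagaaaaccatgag
Klra7: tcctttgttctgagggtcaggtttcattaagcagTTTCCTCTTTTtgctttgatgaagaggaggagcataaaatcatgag
They come from the minus strand, at chr6:130129933-130130012, chr6:130193113-130193192, chr6:130067305-130067384 and chr6:130233366-130233445. The run TTTCCTCTTTT was chosen because all 4 hold it. It occurred, on either strand, in 49 of the 32851 windows of the table (0.149%), windows of these 4 genes included. The 46 genes that held it included Klra2, Klra3, Klra6 and Klra17, and also genes outside the family such as Il5ra, Vegfa and Xiap. A part of the run in the Ly49 levels was not tested.

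Letters of known binding motifs were searched on both strands in the 11 windows of the 8 members. The RUNX letters TGTGGT were found for Klrb1c, Klrc1, Klrk1 and Klre1, in 4 of 11 windows against 16.8% of all windows, and for none of the 4 Ly49 members. Klrb1c, Klrc1 and Klrk1 are shown because they were the members whose old and young rTreg values did not overlap, with the letters in capitals (ACCACA is TGTGGT on the other strand):
Klrb1c: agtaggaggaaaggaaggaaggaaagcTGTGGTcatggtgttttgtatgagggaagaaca
Klrc1: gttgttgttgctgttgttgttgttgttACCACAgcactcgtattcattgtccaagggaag
Klrk1: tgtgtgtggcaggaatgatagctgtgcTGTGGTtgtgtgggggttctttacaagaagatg
They lie on the minus strand at chr6:128788698-128788757, chr6:129679028-129679087 and chr6:129623961-129624020. The T-box letters GGTGTG were found in 1 of 11 windows, that of Klra4 (19.0% of all windows), the GATA letters AGATAA in 1, of Klra7 (11.2%), and the ETS letters AGGAAG in 3, of Klra7, Klrb1c and Klre1 (35.4%). The GATA and ETS matches of Klra7 overlapped. A match is a description of the letters and not a site of binding.

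The genes whose pattern over the 24 libraries was most like that of each member were found by the mean absolute difference in rank among 16611 genes outside the family. For Klrg1 they were Glrx, which encodes glutaredoxin, the keratin gene Krt18, Gm3248, Gm13522 and Slc52a3, with mean rank differences of 1.83 to 2.08, against a median of 7.75 over all genes. For both Klra8 and Klra9 the nearest gene was Gzma, which encodes granzyme A, at 2.83 and 2.62. The nearest genes were Grk6 for Klra7 (2.46), Tmem171 for Klrc1 (2.67), Gcnt2 for Klrk1 (2.33), Susd3 for Klrb1c (3.08), Pald1 for Klra4 (3.67), Gm35748 for Klrd1 (3.46) and Krt80 for Klre1 (3.67). Among the members themselves, Klrc1 and Klrk1 were nearest to each other (2.92), followed by Klrd1 with Klrk1 (3.33), Klre1 with Klrd1 (3.67), and Klra8 with Klra9 and Klrb1c with Klrc1 (both 3.83). The nearest member to Klrg1 was Klra9 at 6.04. Points of this comparison share libraries and depth, and no test was made.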

How the data were processed

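RNA-seq was measured in 24 libraries (SMART-Seq v4, paired reads of 150 bases). Per the labels and the methods, the authors aligned reads to GRCm39 with HISAT2 2.2.1, used SAMtools 1.13, counted per gene with HTSeq 1.99.2 and normalized with DESeq2 1.44.0. The deposited values are a normalized signal, the reads of a gene divided by 1 size factor per library. The annotation release and strand setting are not given in the sources used here. Every listed gene had at least 100 reads in sum.

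Whole reads were recovered within 0.001 reads. Symbols and positions came from GENCODE M39, which held 17353 of 17464 identifiers. limma 3.58.1 (R 4.3.3) with a mean-variance trend was fitted to log2(value + 1), pseudocount 1, in 6 groups, over 16630 genes with at least 10 in at least 4 libraries. Folds are on that scale, which understates low genes. Subset contrasts weighted the ages equally. edgeR 4.0.16 and DESeq2 1.42.0 on the recovered reads, other pseudocounts, filters and models, and fits without single libraries were alternatives. Fits were tested on simulated data. Sequences were compared with Biopython 1.88, and plots used Python 3.11.15 with matplotlib 3.10.9. Intervals and floors cover counting error only.

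The design text states that the subsets of a mouse share its number. Deviations from group means had median correlations of 0.091 to 0.153 within a mouse and −0.051 to −0.033 between mice. All members were reported, listed family genes and genes of lists written by hand were counted, and called ones could be named. The members and lists were chosen with earlier results of these data known. 2 settings without libraries that stand apart were added after seeing the data. Some marker genes are not reported here.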

Additional observations from a re-analysis of the deposited data

Results flagged for a closer look

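Among the 60 sets of 4 libraries (10 genes in 6 groups), 5 had a library far from the other 3. Chance gives this in about 1 of 20 sets of normally distributed values. The values used were not log-transformed and some were at 0, so that share need not hold here. Klra8 in the young kTreg library of replicate 4 was 229, against 14.4 to 45.1 in the other 3. That library was at 0 for 6 members. In old rTreg cells replicate 4 stood apart for 2 genes, with Klra9 at 143 against 0 to 17.0 and Klre1 at 245 against 42.1 to 65.6. Klrc1 in old rTreg replicate 2 was 342, against 110 to 142. Klrg1 in young aTreg replicate 1 was 177, against 106 to 109. No member differed between the ages in the test of interaction, and none moved one way in all young mice and the other way in all old mice between 2 subsets.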

How the results depend on the processing

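Of the values of single members, 1585 of 1680 kept their direction and side of the threshold when 1 library was left out, as did 708 of 779 under other settings. Both totals include values that were not called in the main fit and so could lose no call. A call was lost in 64 of the 1680 and in 19 of the 779. The calls of Klra8 and Klra9 between kTreg and aTreg cells and of Klra7 between aTreg and rTreg cells held under every setting that gave a value. The cause of the changes below was not tested. The number of members called between kTreg and aTreg cells was 5, and 8 at an unadjusted p and 3 with no age in the model. Between kTreg and rTreg cells it was 2, and 1 with a filter at 50 or without 5 libraries that stand apart (1 to 2 without single libraries). Between aTreg and rTreg cells it was 5, and 3 with pseudocount 5, 1 with the filter at 50, 3 with no age and 2 without the 3 libraries of young mouse 2. Between old and young rTreg cells it was 1, and 3 by DESeq2, 2 in a fit of only the groups compared, 3 at an unadjusted p and 4 without the 5 libraries (0 to 3 without single libraries). Between old and young aTreg cells it was 0, and 2, 2, 3 and 1 in the same order (0 to 2). In kTreg cells it was 0, and 1 at an unadjusted p. The interaction gave 0, and 1 by DESeq2 and at an unadjusted p.

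Directions turned only for values that passed no test. Between kTreg and aTreg cells, Klre1 was 0.39 by edgeR and 0.39 by DESeq2, 0.10 with pseudocount 5, 0.19 without young mouse 2 and 1.01 without the 5 libraries (−0.54 to 0.64 without single libraries). Without the 5 libraries, Klrc1 was 0.10 and Klre1 0.074 between kTreg and rTreg cells, and Klrd1 was −0.006 between aTreg and rTreg cells. Between old and young rTreg cells, edgeR and DESeq2 gave 0.92 and 0.96 for Klrg1, 0.42 and 0.44 for Klra4, and 0.35 and 0.37 for Klra8, and Klrg1 was 0.009 with pseudocount 5 and Klra9 −0.089 with pseudocount 0.5. Between old and young kTreg cells, Klre1 was −0.52 by edgeR, −0.48 by DESeq2 and −1.17 without the 5 libraries, and without young mouse 2 Klra7 was 0.13 and Klrb1c −0.071. Without single libraries, Klrb1c (−0.10 to 0.29) and Klrc1 (−1.06 to 0.018) spanned 0 between kTreg and rTreg cells, and Klrd1 (−0.091 to 0.27) between aTreg and rTreg cells. So did Klrg1 (−1.26 to 1.31) and Klra9 (−0.98 to 1.41) between old and young rTreg cells, and Klra4 (−1.75 to 0.056), Klra7 (−1.45 to 0.13), Klrb1c (−0.071 to 0.69) and Klre1 (−0.46 to 1.89) between old and young kTreg cells.

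With the mouse as a replicate block, the pairing left these counts at 5, 2, 5, 1, 0, 0 and 0 and changed no call of the main comparisons. Ly49 genes had 435 to 716 reads in sum, so differences of a few reads per library were not detectable.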
